A study of Homo sapiens with 6 samples.

Results

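Redox, glutathione and aldehyde detoxification genes were taken as the complete rows of the deposited gene table whose symbol belongs to a fixed set of families. These families are the thioredoxins, glutaredoxins, peroxiredoxins, sulfiredoxin, methionine sulfoxide reductases, glutathione enzymes, superoxide dismutases, catalase, quinone reductases, ferritin heavy chain, aldo-keto and carbonyl reductases, aldehyde dehydrogenases, UGT, CYP1 and epoxide hydrolases, and the NFE2L factors. The rule found 95 genes of 13707 in the table. It used no measured value, but it was chosen with earlier results of these data known. It works by name, so it also takes a few genes of other function, such as TXNL4A, a spliceosome protein with a thioredoxin-like fold, and the steroid enzymes CYP11B1 and CYP19A1. The libraries came from MDA-MB-231, an established line of mesenchymal-type triple-negative breast cancer, with 3 libraries titled C and 3 titled K. One arm received 20 µM colistimethate, a prodrug of the antibiotic colistin, and the other was the control. Nothing in the labels assigns C or K to an arm, gives the length of treatment or names separate cultures, although the series text speaks of 3 repeated experiments. All differences are therefore C relative to K, and a p-value here measures only how these libraries vary, part of which may be technical.

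Cells remove peroxides by passing electrons from NADPH through thioredoxin reductase and thioredoxin to peroxiredoxins, and in parallel through glutathione reductase and glutathione to glutathione peroxidases. Glutathione transferases, quinone reductases, aldo-keto reductases and aldehyde dehydrogenases deal with reactive carbonyls and foreign compounds. The transcription factor NRF2, encoded by NFE2L2, binds antioxidant response elements and induces many of these enzymes when its inhibitor KEAP1 is modified. The aryl hydrocarbon receptor induces another set, with CYP1A1 and CYP1B1 as classical targets and ALDH3A1 as a further target in several cell types. KEAP1 and HMOX1 were not analysed here.

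The libraries held between 31438065 and 35946691 reads over the listed genes, and the 95 genes took between 1.18% and 1.21% of reads in C and between 1.13% and 1.19% in K. Of 7 markers of the line 6 were listed and present: AXL was between 822 and 878 TPM in C and between 709.5 and 733 TPM in K (transcript abundance scaled by the authors for gene length and depth). Several of them separated by letter, with AXL and MSN above K in C and CAV1 and ZEB1 below, and the 6 summed to 2424 to 2566 TPM in C and 2234 to 2352 TPM in K. Of 6 genes low or absent in the line 3 were listed: the epithelial cadherin CDH1 was at 0 in all libraries, the epithelial marker EPCAM between 4.24 and 6.10 TPM, and the luminal factor GATA3 between 2.99 and 3.26 TPM in C and between 4.04 and 4.70 TPM in K. The part of these marker differences in the results was not tested. Of the keratinocyte markers, KRT5 and KRT14 were at 0. Of other cell types, 1 of 4 luminal markers was listed (KRT8, 196 to 221 TPM in C and 202 to 229 in K), and the listed fibroblast markers summed to at most 3.15 TPM in C and 2.84 in K. Every pair of libraries differed by more than sampling noise, with a chi-square per degree of freedom of at least 22.4. Reads from the mitochondrial genome took between 3.11% and 3.26% of each C library and between 4.99% and 5.85% of each K library. When those genes were left out, the same 6 members were called as described next. Across 9048 genes, which are not independent of each other, log2 fold change and GC content had a Spearman rho of 0.25, and with an offset for GC and length the same 6 stayed among the calls.

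Thioredoxin reductase TXNRD1, peroxiredoxin PRDX1 and sulfiredoxin SRXN1 were higher in C, while CYP1B1 and the aldehyde dehydrogenases ALDH3A1 and ALDH3B1 were lower in C. The changes ran from CYP1B1, at 0.636 times its K level, to PRDX1, at 1.31 times. After a filter on low counts, 71 of the 95 genes were tested with edgeR's quasi-likelihood test, and 3 were higher and 3 lower at a Benjamini-Hochberg adjusted p of 0.05. Over all 9057 genes tested, 2.20% were called higher and 3.41% lower in C, 5.61% in all, against 8.45% of these genes. At an unadjusted p under 0.05 there were 26 members, or 36.6%, against 27.0% of all genes. The median log2 fold change was -0.033 over the 71 genes and -0.0044 over all tested genes, and the median size of change was 0.12 in both sets. None of the 71 genes changed by 1 or more on the log2 scale, and for 30 the fold change was under 0.1 in size. The C and K libraries did not overlap for 14 genes with C above K, or 19.7% of the 71, against a background of 16.1%. They did not overlap for 17 with C below K, or 23.9%, against 17.7%. In bulk RNA a change in every cell and a change in part of the cells cannot be told apart. The number of members called was 1 without C1, 2 without C2, C3 or K1, 3 without K3 and 7 without K2. Calls over all genes moved as well, from 508 to 77 without C1, 116 without C2 and 109 without C3. They numbered 117 without K1, 99 without K3 and 533 without K2. These fits tested between 9126 and 9140 genes, with 71 members in each.

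**Figure D1:**
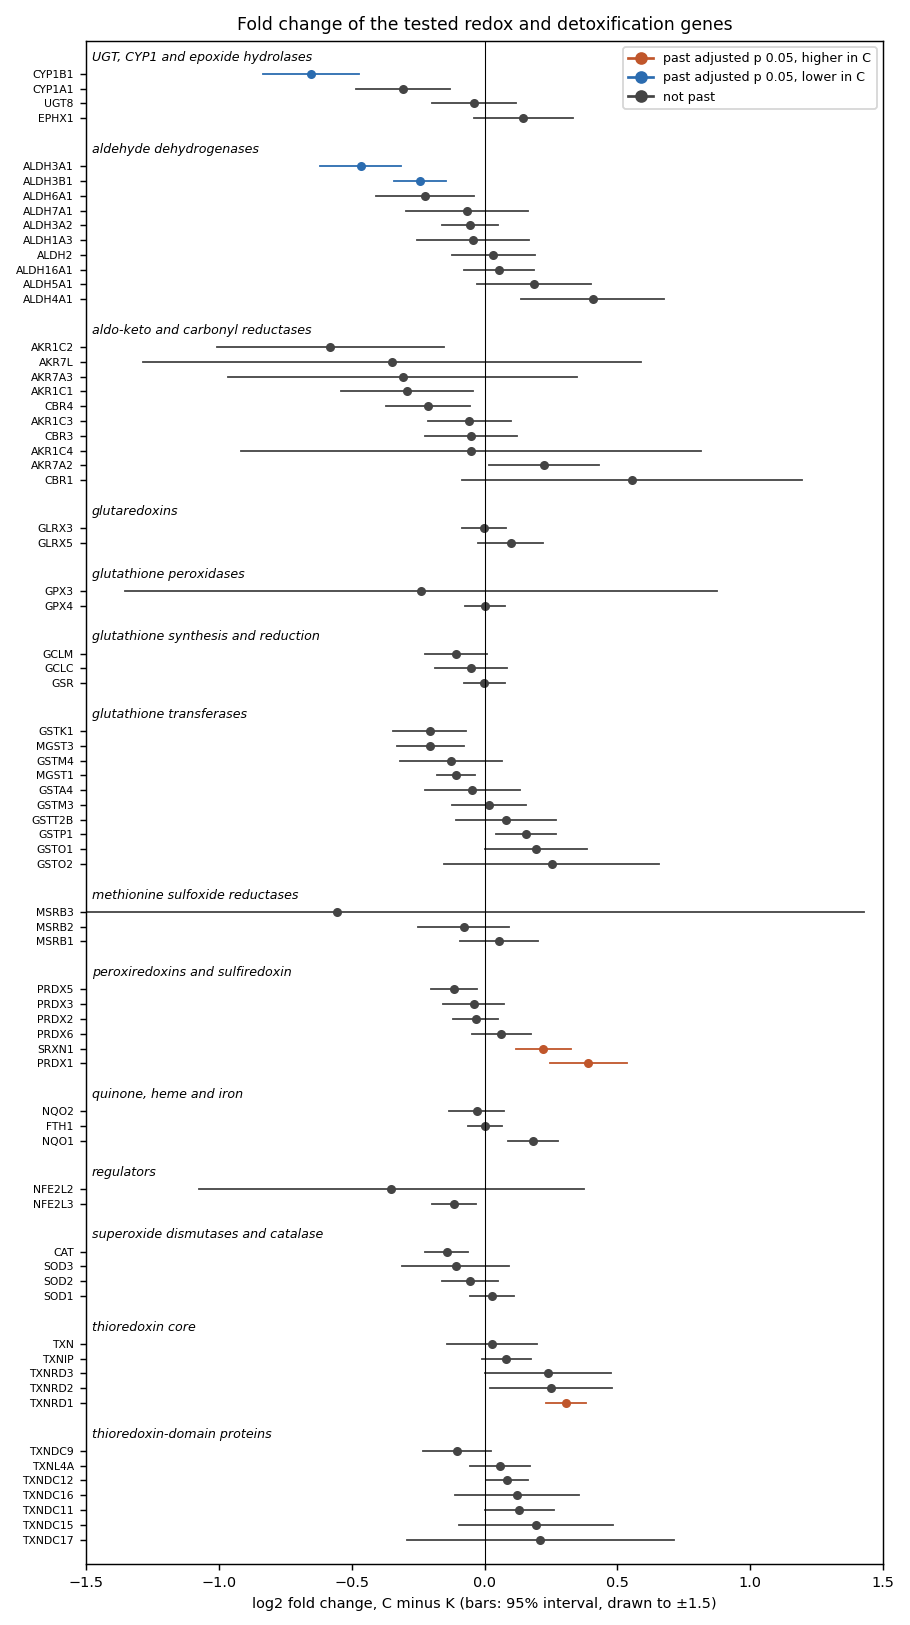
Log2 fold change, C minus K, of the 71 tested genes by role, with 95% intervals from the fit as horizontal bars, drawn to 1.5 either way. Most intervals cross 0, and the 3 genes past the threshold on the right are PRDX1, TXNRD1 and SRXN1, with CYP1B1, ALDH3A1 and ALDH3B1 on the left.

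Levels were compared between genes on the TPM scale only. Ferritin heavy chain FTH1, which stores iron in a form that cannot drive radical chemistry, was the most abundant at a mean of 3455 TPM. FTH1 shares 13.7% of its 75-base exonic windows with other genes, mostly its pseudogenes, so its count is uncertain to that extent. Thioredoxin TXN followed at 1058 TPM, the phospholipid peroxidase GPX4 at 919 TPM, the glutathione transferase GSTP1 at 710.5 TPM and PRDX1 at 656 TPM. TXNRD1 ranked 7 at 515 TPM, between PRDX2 at 614 TPM and GSTO1 at 437 TPM. These means are over all 6 libraries, and from TXN to SOD1, at 424 TPM, most neighbours in this order overlapped: TXN with GPX4, GSTP1 with PRDX1, PRDX1 with PRDX2, PRDX2 with TXNRD1, TXNRD1 with GSTO1, and GSTO1 with SOD1. Only GPX4 and GSTP1 did not. Compared within the same library, TXN was above GPX4, PRDX2 above TXNRD1 and TXNRD1 above GSTO1 in every library. The margin was narrow in C1 for PRDX2 and TXNRD1 (608.3 against 607.0 TPM) and in K2 for TXNRD1 and GSTO1 (450.7 against 449.4 TPM). The other overlapping pairs changed order between libraries. In K alone PRDX2, at a mean of 617 TPM, was above PRDX1 at 565 TPM, and SOD1 at 417 TPM was above GSTO1 at 405 TPM, with overlapping K libraries in both pairs. The least abundant tested gene was AKR1C4, a hepatic hydroxysteroid dehydrogenase, at 0.253 TPM.

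**Figure D2:**
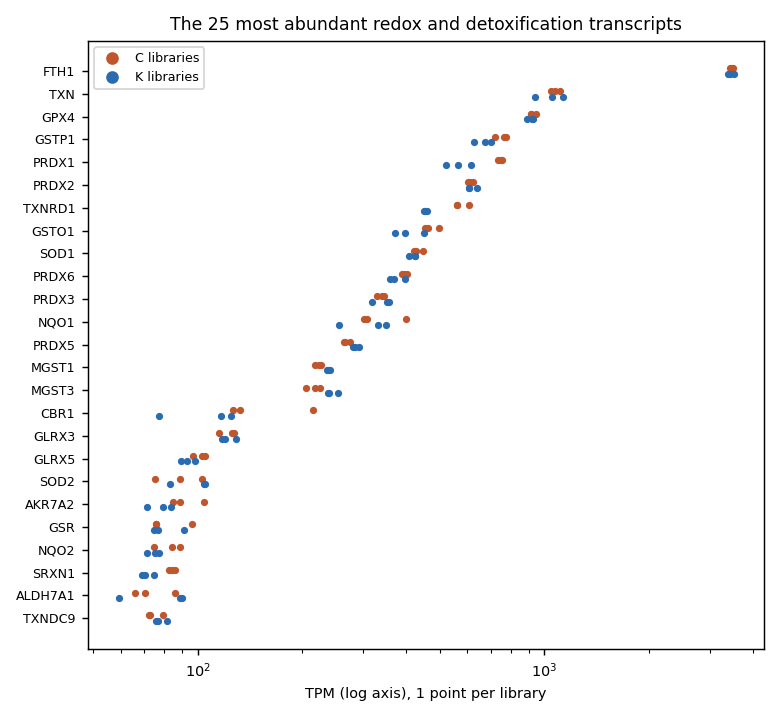
TPM of the 25 most abundant of these transcripts on a log axis, 1 point per library, C above K in each row. FTH1 stands alone at a mean of 3455 TPM. The C and K points do not overlap for the called TXNRD1, PRDX1 and SRXN1. They also do not overlap for GSTP1, GSTO1, PRDX5, MGST1, MGST3, CBR1 and AKR7A2, which did not pass the threshold.

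The thioredoxin reductases lie at the head of the thioredoxin chain and carry selenocysteine at their active site. TXNRD1, the cytosolic enzyme (chromosome 12, 104215779 to 104350305, GRCh38), was at 1168, 1111 and 1129 CPM (reads per 1000000 library reads after TMM scaling) in C1 to C3 and at 909.7, 942 and 902 CPM in K1 to K3. Every C library was above every K library. The log2 ratio of C to K was 0.31 (SE 0.031 and adjusted p 0.00763), or 23.8% higher in C, and the adjusted p stayed between 0.0155 and 0.0425 when any 1 library was left out. The TPM values separated in the same way, at 575 ± 27.4 in C and 455 ± 4.72 in K. Each ± value here is the SD over the 3 libraries of a letter (n = 3).

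The mitochondrial reductase TXNRD2 was at 41.2, 44.1 and 45.2 CPM in C1 to C3 and 31.8, 40.5 and 37.4 CPM in K1 to K3 (C to K log2 ratio 0.25 with SE 0.095, adjusted p 0.159). TXNRD3, a relative with a glutaredoxin domain known from testis, was at 12.6 ± 1.18 and 10.7 ± 0.693 CPM (log2 ratio 0.24 with SE 0.098, adjusted p 0.181). Neither passed, and the intervals of their fold changes, 0.02 to 0.48 and 0.0032 to 0.48, include the TXNRD1 value. In CPM both had every C library above every K library, but for TXNRD3 only by 11.3185 in C2 against 11.3176 in K3. The authors' TPM values overlapped for both. TXNRD2 was at 33.6 TPM in C1 against 33.9 in K2, and TXNRD3 at 6.04 in C2 against 6.06 in K3. Thioredoxin TXN was at a C mean of 682 ± 18.8 CPM and a K mean of 669 ± 65.1 CPM with overlapping libraries. The 95% interval of TXN on the log2 scale was -0.14 to 0.20. TXNIP, which binds and inhibits thioredoxin, was at 121 ± 1.86 and 115 ± 4.13 CPM (log2 ratio 0.08, adjusted p = 0.231). Of the 5 tested genes of this core, 1 was higher, 0 were lower, and all 5 fold changes were above 0. Of all tested genes 2.20% were higher, and 48.9% had a fold change above 0.

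Promoter sequences are shown for TXNRD1 and SRXN1, which were higher in C. They are also shown for GCLM, which did not pass the test, and for CYP1A1, just outside the threshold in the other direction. They are the 250 bases before the start site from RefSeq on GRCh38.p14, with the searched motif in capitals on either strand. The motif is TGACNNNGC, the core of the antioxidant response element (GCNNNGTCA on the other strand), for the first genes and GCGTG, the core bound by the aryl hydrocarbon receptor (CACGC on the other strand), for CYP1A1.
TXNRD1, first start, chr12:104215529-104215778, plus strand: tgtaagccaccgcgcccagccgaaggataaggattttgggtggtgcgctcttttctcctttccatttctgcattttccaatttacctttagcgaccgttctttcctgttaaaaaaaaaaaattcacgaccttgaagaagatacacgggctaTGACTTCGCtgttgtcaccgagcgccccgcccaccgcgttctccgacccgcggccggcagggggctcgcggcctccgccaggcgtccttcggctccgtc
TXNRD1, second start, chr12:104286782-104287031, plus strand: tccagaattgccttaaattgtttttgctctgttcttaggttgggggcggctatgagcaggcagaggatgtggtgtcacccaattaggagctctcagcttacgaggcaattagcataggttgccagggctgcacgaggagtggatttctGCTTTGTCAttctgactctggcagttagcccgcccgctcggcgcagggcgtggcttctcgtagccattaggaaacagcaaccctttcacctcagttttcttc
SRXN1, chr20:653201-653450, minus strand: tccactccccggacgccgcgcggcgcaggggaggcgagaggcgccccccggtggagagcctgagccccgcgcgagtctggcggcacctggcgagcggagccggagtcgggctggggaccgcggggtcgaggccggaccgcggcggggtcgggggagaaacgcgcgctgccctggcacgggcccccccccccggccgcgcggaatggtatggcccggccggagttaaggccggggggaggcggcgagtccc
GCLM, chr1:93909431-93909680, minus strand: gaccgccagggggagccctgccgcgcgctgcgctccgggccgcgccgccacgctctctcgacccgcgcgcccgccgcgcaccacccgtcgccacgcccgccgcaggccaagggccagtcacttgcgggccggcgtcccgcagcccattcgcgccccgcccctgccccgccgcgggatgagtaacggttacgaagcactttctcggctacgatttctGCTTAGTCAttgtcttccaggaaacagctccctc
CYP1A1, chr15:74725529-74725778, minus strand: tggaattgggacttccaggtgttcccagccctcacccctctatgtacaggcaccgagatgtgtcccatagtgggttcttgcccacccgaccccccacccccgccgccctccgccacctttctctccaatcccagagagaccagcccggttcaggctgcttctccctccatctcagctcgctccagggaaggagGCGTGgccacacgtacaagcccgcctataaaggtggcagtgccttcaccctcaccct

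The TXNRD1 motif began 99 bases before the first start and 102 bases before the second, on opposite strands, and the GCLM motif began 34 bases before its start. No match lay in this window of SRXN1, and the CYP1A1 match began 57 bases before its start. TGACNNNGC was found in 10.9% of all 35116 promoters of this length and in 10 of the 85 promoters of the 58 tested members with an entry, or 11.8%. GCGTG was found in 32.2% of all promoters and in 42 of the 85, or 49.4%. TGACNNNGC stood in promoters of 8 of these 58 genes, of which TXNRD1 was called and AKR7A2, CBR1, EPHX1, GCLM, GSTA4, GSTO1 and GSTP1 were not. A match is a run of letters and not evidence of binding. PRDX1, CYP1B1 and ALDH3A1 were not analysed here in this respect.

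Peroxiredoxins reduce peroxides with a reactive cysteine and are recycled by thioredoxin, or by sulfiredoxin once they are overoxidised. PRDX1, an abundant cytosolic form (chromosome 1, 45511036 to 45523047), was at 557, 542 and 560.1 CPM in C1 to C3 and at 389, 459 and 417 CPM in K1 to K3. All C libraries were above all K libraries, and K2 was the nearest to C. Its log2 ratio was 0.39 (SE 0.060 and adjusted p 0.0264). Its exons overlap MMACHC on the other strand, and whether counting used strand is not given in the sources used here.

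SRXN1, which reactivates overoxidised peroxiredoxins (chromosome 20, 646615 to 653370), was at 164, 166 and 171 CPM in C1 to C3 and at 139, 150.9 and 140.5 CPM in K1 to K3. The letters did not overlap, and K2 was again the nearest to C. Its log2 ratio was 0.22 (SE 0.043 and adjusted p 0.0415). SRXN1 shares 84.6% of its 75-base windows with an overlapping gene model, so its count is uncertain where reads could be split. Neither the PRDX1 nor the SRXN1 call held without C1, C2, C3, K1 or K3, at adjusted p from 0.0517 to 0.101 for PRDX1 and from 0.0966 to 0.128 for SRXN1.

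The other peroxiredoxins did not pass. PRDX2, a second cytosolic form, was at a C mean of 437 ± 8.51 CPM and a K mean of 447 ± 15.4 CPM (log2 ratio -0.03, 95% interval -0.12 to 0.05). Mitochondrial PRDX3 was at 392 ± 8.27 and 404 ± 23.8 CPM, and PRDX6, which also has phospholipase activity, at 507 ± 9.97 and 486 ± 28.0 CPM. For all 3 the libraries of the letters overlapped. PRDX5 was at a C mean of 166 ± 3.46 CPM and a K mean of 179 ± 5.01 CPM without overlap (log2 ratio -0.12, adjusted p = 0.108). Of the 6 genes in this group 2 were higher and 0 lower, against 2.20% and 3.41% of all tested genes. The upper interval bounds of PRDX2 and PRDX3, at 0.05 and 0.07, lay below the lower bound of PRDX1 at 0.24. The difference between family members was not tested.

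NQO1, the NADPH quinone reductase and a standard NRF2 target, was just outside the threshold. It was at 529.8, 493 and 497 CPM in C1 to C3 and at 432, 453 and 453 CPM in K1 to K3. Every C library was above every K library, and its log2 ratio was 0.18 (SE 0.039 and adjusted p 0.0509). It passed with DESeq2 size factors (adjusted p = 0.0478), with library size only (0.0494), with a mean count of at least 50 (0.0483), in DESeq2 (0.00451) and with the GC and length offset (0.0431). The authors' TPM values gave another picture, at 399, 302 and 308 in C and 256, 330.5 and 349.9 in K, which overlap (log2 ratio 0.11 on the log2(TPM + 1) scale, adjusted p = 0.704 in limma). NQO2, a relative that uses other cosubstrates, was at 187 ± 7.80 and 191 ± 5.49 CPM. FTH1 was at a C mean of 2094 ± 13.0 CPM and a K mean of 2093 ± 49.1 CPM, with a 95% interval of -0.06 to 0.06 on the log2 scale.

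**Figure D3:**
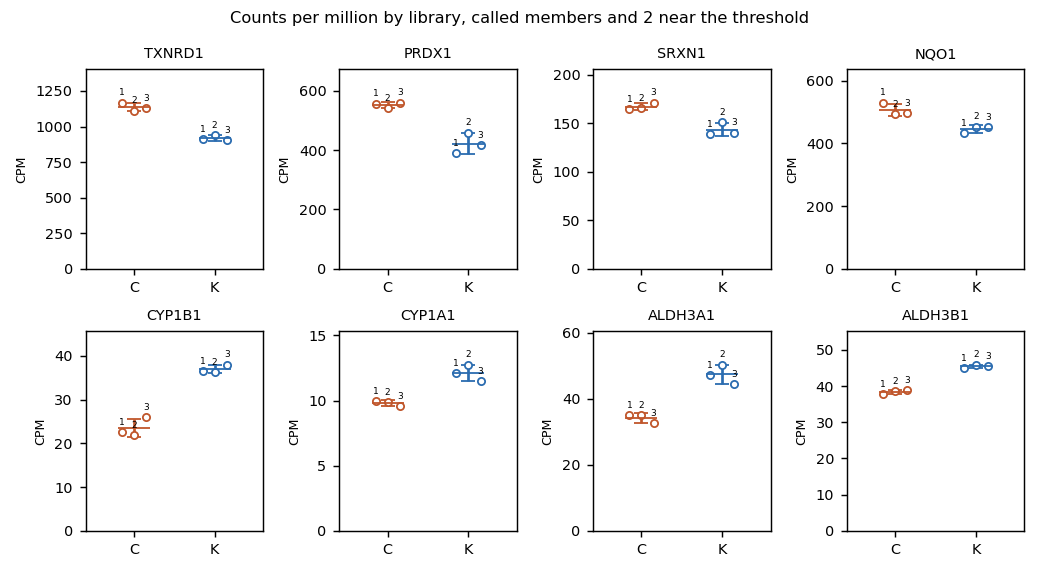
CPM by library for the 6 genes past the threshold and for NQO1 and CYP1A1, with numbered points for the 3 libraries of each letter, a dash for the mean and bars for the SD. Axes start at 0. In all 8 panels the C and K points do not overlap: TXNRD1, PRDX1, SRXN1 and NQO1 are above K in C and the others below.

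Genes of glutathione synthesis and recycling had little spread in CPM and did not pass. GCLC, the catalytic subunit of the enzyme that starts glutathione synthesis, was at a C mean of 62.7 ± 3.44 CPM and a K mean of 65.0 ± 2.71 CPM. Its regulatory partner GCLM was at 69.3, 71.3 and 71.8 CPM in C1 to C3 and at 79.5, 72.1 and 77.4 CPM in K1 to K3. The C libraries of GCLM were all below the K libraries, by a narrow margin to K2 (log2 ratio -0.11 with SE 0.048, adjusted p 0.209). GSR, which reduces oxidised glutathione, was at 166 ± 1.03 and 166 ± 4.22 CPM, with an interval of -0.08 to 0.08. The authors' TPM values of GSR spread more, at 82.7 ± 11.8 in C and 81.1 ± 9.02 in K. GCLM and GCLC are standard NRF2 targets, but not the only targets among the genes described here. PGD, which was higher in C, is in the list with other NRF2 targets given below. Whether NRF2 activity differed was not tested.

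GPX4, which reduces lipid peroxides and guards against ferroptosis, was at 526.5, 539.8 and 529 CPM in C1 to C3 and 541, 539 and 514 CPM in K1 to K3, with overlap (95% interval -0.07 to 0.08 on the log2 scale). GPX3, a secreted form, varied widely within each letter and is described with the uneven genes. Glutathione transferases gave 0 calls in 10 tested, against 5.61% of all tested genes called in either direction. GSTP1, the most abundant, was at 536, 528 and 501 CPM in C1 to C3 and 442, 477 and 487 CPM in K1 to K3. The letters did not overlap (log2 ratio 0.16 with SE 0.047, adjusted p 0.102), and it passed in DESeq2 (adjusted p = 0.0490). GSTO1, a thiol transferase of the omega class, was at a C mean of 326 ± 16.8 CPM and a K mean of 285 ± 29.7 CPM with overlap (log2 ratio 0.19, adjusted p = 0.183). It was the added call when K2 was left out.

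Members of the membrane and kappa classes had fold changes below 0 and did not pass, although DESeq2 called MGST3 and GSTK1 lower in C. MGST3, of the microsomal group, was at a C mean of 155 ± 7.64 CPM and a K mean of 179 ± 8.42 CPM (log2 ratio -0.20, adjusted p = 0.0731). MGST1 was at 144 ± 2.47 and 156 ± 0.785 CPM (log2 ratio -0.11, adjusted p = 0.0889), and GSTK1, a mitochondrial and peroxisomal form, at 59.8 ± 2.91 and 69.0 ± 3.36 CPM (log2 ratio -0.21, adjusted p = 0.0839). For all 3 of them every C library was below every K library. The remaining GSTM3, GSTM4, GSTA4, GSTT2B and GSTO2 had fold changes between -0.13 and 0.25 on the log2 scale and adjusted p of at least 0.355. GSTT2B shares 85.4% of its windows with GSTT2, and GSTM4 10.1% with its relatives, so their counts are uncertain.

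Catalase CAT, which splits hydrogen peroxide in peroxisomes, was at 92.4, 92.8 and 91.1 CPM in C1 to C3 and 104, 99.3 and 101 CPM in K1 to K3. The letters did not overlap, and the log2 ratio of -0.14 (SE 0.034) had an adjusted p of 0.0607. The superoxide dismutases did not pass either. Cytosolic SOD1 was at a C mean of 304 ± 8.74 CPM and a K mean of 298 ± 7.10 CPM, mitochondrial SOD2 between 108 and 114 CPM in C and between 110.2 and 118 CPM in K, and secreted SOD3 at 6.64 ± 0.174 and 7.16 ± 0.264 CPM.

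Both tested NFE2L factors had fold changes below 0 and neither passed. NFE2L3, a relative of NRF2, was at a C mean of 153 ± 2.57 CPM and a K mean of 165 ± 4.55 CPM without overlap (log2 ratio -0.12 with SE 0.035, adjusted p 0.101). NFE2L2 itself was at 146, 86.3 and 81.7 CPM in C1 to C3 and at 159, 88.5 and 153 CPM in K1 to K3. It was high in C1, K1 and K3 and low in C2, C3 and K2, so its levels did not follow the letters. Its log2 fold change was -0.35 with an SE of 0.30 (adjusted p = 0.499), and the 95% interval of -1.08 to 0.37 leaves its direction unresolved. The authors' TPM values gave the same split, at 78.7, 49.0 and 46.2 in C and 85.4, 49.3 and 83.2 in K. NFE2L2 shares 11.0% of its 75-base windows with an overlapping gene model. The called genes TXNRD1, PRDX1 and SRXN1 had a largest C library of 1.05, 1.03 and 1.04 times the smallest, and a largest K library of 1.04, 1.18 and 1.08 times, with K2 the highest of K for all 3.

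Unequal libraries of 1 letter were seen for 5 of the 66 tested members with a mean of at least 5 CPM, or 7.58%, taking a largest library over 1.5 times the smallest. Among all 7484 tested genes at that level the share was 9.05%. The others were MSRB3, GPX3, CBR1 and TXNDC17. MSRB3, a methionine sulfoxide reductase of mitochondria and the endoplasmic reticulum, was at 8.55, 44.7 and 8.05 CPM in C1 to C3 and at 39.4, 9.61 and 41.4 CPM in K1 to K3. In CPM it thus took a high level in C2, K1 and K3 and a low one in C1, C3 and K2. The authors' TPM values were 4.49, 14.9 and 5.64 in C1 to C3 and 13.7, 11.1 and 17.2 in K1 to K3. On that scale K2 did not share the low level of C1 and C3. The log2 ratio of MSRB3 from the counts, -0.56, had an SE of 0.82 (adjusted p = 0.704). It ran from -1.86 without C2 to -0.18 without C3.

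GPX3 was at 57.1, 29.8 and 18.1 CPM in C1 to C3 and at 24.1, 51.1 and 48.6 CPM in K1 to K3, with no order by letter. CBR1, a carbonyl reductase of quinones and prostaglandins, was at 204, 124 and 120.01 CPM in C1 to C3 and at 112, 119.9 and 73.0 CPM in K1 to K3. C1 stood apart from C2 and C3, and K3 from K1 and K2. Its log2 ratio of 0.56 had an SE of 0.27 (adjusted p = 0.237) and was 0.27 without C1. The libraries high in CPM thus differed from gene to gene. They were C1, K1 and K3 for NFE2L2, C2, K1 and K3 for MSRB3, and C1, K2 and K3 for GPX3.

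**Figure D4:**
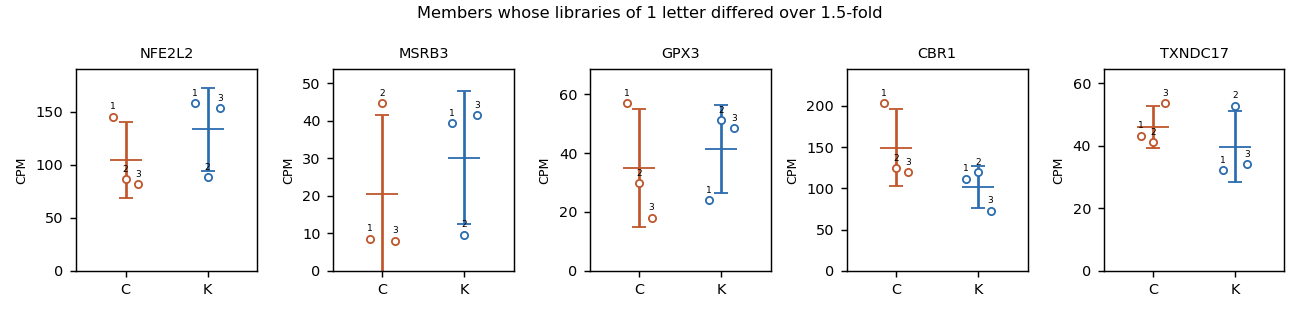
CPM by library for the 5 members whose libraries of a letter differed by more than 1.5-fold, with numbered points, a dash for the mean and bars for the SD over 3 libraries, on axes from 0, which cut the lower MSRB3 bar in C. In CPM the libraries of NFE2L2 and MSRB3 fall at a high and a low level that cross the letters. In the authors' TPM values K2 did not share the low level of MSRB3.

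Methionine sulfoxide reductases repair oxidised methionine, and glutaredoxins handle mixed disulfides and iron-sulfur clusters. MSRB1, the selenoprotein form, was at a C mean of 41.4 ± 0.886 CPM and a K mean of 39.9 ± 2.66 CPM, and MSRB2 at 62.4 ± 1.73 and 65.9 ± 6.06 CPM. GLRX3 was at a C mean of 183 ± 2.39 CPM and a K mean of 183 ± 5.35 CPM, with an interval of -0.09 to 0.08 on the log2 scale, and GLRX5 at 117 ± 4.06 and 109 ± 5.76 CPM. None of these 4 passed. Among thioredoxin-domain proteins 0 of 7 passed, against 5.61% of all tested genes. Fold changes were above 0 for 6 of the 7, against 48.9% of all tested genes. TXNDC12, of the endoplasmic reticulum, was at a C mean of 105 ± 2.23 CPM and a K mean of 98.8 ± 1.16 CPM, and TXNDC11 at 44.0 ± 1.94 and 40.2 ± 1.43 CPM, each without overlap. TXNDC12 shares 43.7% of its windows with other gene models. TXNDC9, a relative linked to chaperonin folding and the most abundant on the TPM scale, was at 83.1 ± 4.86 and 89.3 ± 3.14 CPM (adjusted p = 0.275). TXNDC17 was at 43.2, 41.1 and 53.7 CPM in C1 to C3 and at 32.3, 52.8 and 34.1 CPM in K1 to K3, with C3 and K2 high. TXNDC15, TXNDC16 and TXNL4A had log2 ratios of 0.19, 0.12 and 0.06 (adjusted p 0.356, 0.461 and 0.475).

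Aldehyde dehydrogenases gave 0 higher and 2 lower calls in 10 tested, against 2.20% and 3.41% of all genes. The called ALDH3A1 and ALDH3B1 are of the family that also holds ALDH3A2, which did not pass. ALDH3A1, which oxidises aromatic and lipid-derived aldehydes (chromosome 17, 19737984 to 19748943), was at 35.2, 35.1 and 32.6 CPM in C1 to C3 and at 47.3, 50.4 and 44.5 CPM in K1 to K3. All C libraries were below all K libraries. Its log2 ratio was -0.47 (SE 0.064 and adjusted p 0.0182), or 0.723 times the K level. The call was lost without C1, C2, C3 or K1, with adjusted p between 0.0622 and 0.0726. An antisense gene model, AC005722.3, overlaps its exons.

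ALDH3B1, which acts on lipid aldehydes at membranes (chromosome 11, 68008578 to 68029276), was at 37.8, 38.5 and 38.9 CPM in C1 to C3 and at 44.96, 45.95 and 45.43 CPM in K1 to K3. Within each letter the libraries lay within 1.03-fold of each other. Its log2 ratio was -0.24 (SE 0.041 and adjusted p 0.0305). The call did not hold without C1, C2, C3, K1 or K3, at adjusted p from 0.0838 to 0.118. ALDH3A2, the fatty aldehyde dehydrogenase of the same family, was at a C mean of 68.2 ± 1.94 CPM and a K mean of 70.8 ± 2.33 CPM and did not pass (95% interval -0.16 to 0.05). The most abundant, ALDH7A1, was at 177 ± 11.1 and 186 ± 22.4 CPM, and mitochondrial ALDH2, which clears acetaldehyde, at 187 ± 6.27 and 183 ± 15.5 CPM. ALDH4A1, of proline breakdown, was at 25.9, 24.7 and 27.2 CPM in C and 20.0, 16.5 and 22.2 CPM in K (log2 ratio 0.41 with SE 0.11, adjusted p 0.0854). It passed in DESeq2, and shares 35.8% of its windows with another gene model. ALDH1A3, a retinaldehyde dehydrogenase often used as a stem-like marker in breast cancer, was at 18.7 ± 0.816 and 19.3 ± 1.91 CPM. ALDH6A1, ALDH5A1 and ALDH16A1 had log2 ratios of -0.23, 0.18 and 0.05 (adjusted p 0.126, 0.243 and 0.569).

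The aldo-keto and carbonyl reductases gave 0 calls in 10 tested, against 5.61% of all tested genes called in either direction. AKR7A2, an aflatoxin aldehyde reductase, was at a C mean of 86.1 ± 9.15 CPM and a K mean of 73.7 ± 4.62 CPM without overlap (log2 ratio 0.22, adjusted p = 0.162). AKR1C3, a steroid and prostaglandin reductase, was at 76.4 ± 1.79 and 79.5 ± 6.78 CPM. Its relatives were rare: AKR1C1 was at a C mean of 6.11 ± 0.582 CPM and a K mean of 7.48 ± 0.231 CPM, and AKR1C2 at 1.73 ± 0.256 and 2.60 ± 0.349 CPM (log2 ratios -0.29 and -0.58, adjusted p = 0.137 and 0.106). They share 21.9% and 30.1% of their windows with each other and other AKR1C genes, so the split between them is uncertain. CBR4, a mitochondrial reductase, was at 19.4 ± 0.177 and 22.4 ± 1.53 CPM without overlap (log2 ratio -0.21, adjusted p = 0.108). CBR3 had a log2 ratio of -0.05, and the rare AKR7A3, AKR7L and AKR1C4 had K means of 1.01, 0.992 and 0.282 CPM and did not pass.

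CYP1B1, a cytochrome P450 that hydroxylates estradiol and polycyclic hydrocarbons (chromosome 2, 38067507 to 38109902), showed the largest change among the 6 called members. It was at 22.6, 21.95 and 25.9 CPM in C1 to C3 and at 36.5, 36.4 and 38.0 CPM in K1 to K3. All C libraries were below all K libraries. Its log2 ratio was -0.65 (SE 0.075 and adjusted p 0.0115). The adjusted p was 0.0569 without C1 and between 0.0130 and 0.0490 without any other library. Its exons overlap RMDN2 on the other strand and RMDN2-AS1 on the same strand, so its count is uncertain to that extent.

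CYP1A1, the related enzyme, was at 9.97, 9.86 and 9.57 CPM in C1 to C3 and at 12.1, 12.8 and 11.5 CPM in K1 to K3. The letters did not overlap, and the log2 ratio of -0.31 (SE 0.074) had an adjusted p of 0.0620, outside the threshold. EPHX1, the microsomal epoxide hydrolase, was at a C mean of 58.7 ± 3.47 CPM and a K mean of 53.0 ± 4.61 CPM, and UGT8, which makes galactosylceramide, at 33.6 ± 2.29 and 34.5 ± 1.04 CPM. Neither passed.

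The 24 members that were not tested were rare or unread. Of these, 18 had 0 reads in all 6 libraries, which allows up to 3 reads in a library, or at most between 0.0835 and 0.0954 CPM, for counting error only. They include the 10 UGT1A, UGT2B and UGT3A genes listed, which conjugate glucuronic acid or other sugars to drugs and steroids, and GSTM1, GSTA1, GSTA3, EPHX2 and GPX5, with GSTTP1, TXNDC8 and CYP11B1 as the rest. The UGT1A genes share between 40.2% and 73.4% of their windows. ALDH1A1, another stem-like marker, had 0, 2 and 0 reads in the C libraries, in order, against 8, 32 and 0 in the K libraries. GPX2, an epithelial peroxidase, had between 1 and 11 reads. The remaining EPHX3, ALDH1L1, TXNRD3NB and CYP19A1 had at most 13 reads in any library.

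Genes of the same pathways outside these families were read from 106 names, of which 72 were listed, 65 had enough reads to be tested and 3 were higher and 3 lower in C, against the same backgrounds of 2.20% and 3.41%. The higher genes were MAFF, a small partner of NRF2 on DNA (log2 ratio 0.19 with SE 0.032, adjusted p 0.0287), the endoplasmic reticulum selenoprotein SELENOS (0.24 with SE 0.041, adjusted p 0.0299) and PGD, an NADPH source of the pentose phosphate pathway (0.18 with SE 0.037, adjusted p 0.0485). The lower genes were the multidrug exporter ABCC3, the oxidase NOX5 and the glutathione-cleaving enzyme GGT5. ABCC3 was at 30.4, 28.5 and 30.1 CPM in C1 to C3 and at 44.0, 46.5 and 52.0 CPM in K1 to K3 (log2 ratio -0.68 with SE 0.073, adjusted p 0.00887). NOX5, which makes superoxide, was at 4.41, 4.53 and 3.67 CPM in C and 8.66, 8.39 and 8.25 CPM in K, or 0.499 times the K level (95% interval -1.27 to -0.74 on the log2 scale, adjusted p = 0.00946). GGT5 had a log2 ratio of -0.30 (SE 0.044 and adjusted p 0.0212). The ABCC3 and NOX5 calls held without any 1 library. Those of MAFF, SELENOS and GGT5 did not hold without C1, C2, C3, K1 or K3, at adjusted p of at least 0.0712, 0.0858 and 0.0520. PGD did not pass in any fit on 5 libraries, at adjusted p from 0.0628 to 0.138. It also missed the threshold with no filter (0.0544), in limma on TPM (0.136) and with the GC and length offset (0.0618), and GGT5 did in limma on TPM (0.0774).

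By sublist, NADPH supply had 1 higher of 7 tested, cystine uptake and glutathione turnover 1 lower of 12, and selenoproteins with selenium supply 1 higher of 11. NRF2 partners, other targets and exporters had 2 higher and 1 lower of 21. PGD counts in that list and in NADPH supply. Glyoxal, sulfide and protein repair had 0 of 11, and oxidant sources 1 lower of 6. Over all tested genes 2.20% were higher and 3.41% lower. The sublist medians lay between -0.16 and 0.08 on the log2 scale.

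**Figure D5:**
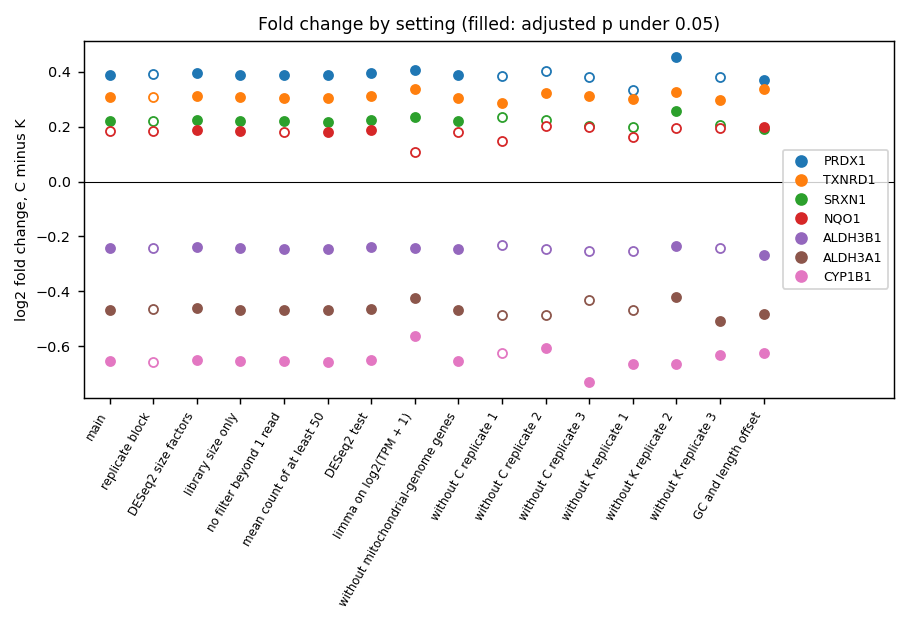
Log2 fold change, C minus K, of the 6 called genes and NQO1 under the edgeR fit described above and its 15 alternatives along the x axis, with filled points where the adjusted p is under 0.05. The genes keep their side of 0 throughout, and the open points of the 6 called genes are at fits with 1 library left out and at the replicate block.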

How the data were processed

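The authors deposited 1 table with counts, TPM and FPKM per gene and library, per the file headers. Counts were whole numbers and taken as reads per gene. TPM and FPKM are the authors' values scaled by length and depth, and FPKM was not analysed. Per the submitters' processing notes, the tools were HISAT2 2.1.0, StringTie 1.3.3b, Trimmomatic and FastQC 0.11.2, and the build GRCh38 (hg38). Which tool counted, and whether by strand, is not given in the sources used here.

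The deposited counts were filtered with filterByExpr (minimum count 10, minimum total 15), scaled by TMM and tested with edgeR 4.0.16 in R 4.3.3 (quasi-likelihood test, C against K, no covariate), with Benjamini-Hochberg adjustment over 9057 genes at 0.05. The SE is the fold change divided by the square root of F, and intervals are 95%. The steps were tested on simulated data. Shared windows and overlaps came from GENCODE release 29. Library totals cover the listed genes, whose TPM sum to 67.1% to 67.9% of the full scale.

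Members, gene lists and tests were chosen with earlier results of these data known. Named genes were members past the threshold, the 3 nearest outside it, the most abundant of each role, the 3 largest changes outside it, TXNRD1, NFE2L2 and KEAP1, and called pathway genes. Other members are given to complete their role and were named after their values were seen.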

Additional observations from a re-analysis of the deposited data

How the results depend on the processing

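The 6 called members kept their direction under all 15 alternatives, and these 6 stayed among the calls under each scaling and filter, in DESeq2 1.42.0, in limma 3.58.1 on log2(TPM + 1), without mitochondrial-genome genes and with the GC and length offset, which was chosen after seeing the data. DESeq2 called 6 members higher and 5 lower, 5 pathway list genes higher, and 526 genes higher and 513 lower in all. Limma on TPM called 135 genes higher and 144 lower, with 2 pathway list genes higher and 1 lower. That fit took only genes with a mean of at least 1 TPM, so NOX5, at 0.992 TPM, was not tested in it. The titles share replicate numbers, but same-numbered libraries did not deviate together (correlations of -0.089, 0.032 and -0.0043 across genes). Only K2 correlated best with the library of its own number. With the replicate block, 0 members were called higher and 0 lower, 0 and 0 of the pathway list, and 4 and 21 of all genes. Leaving out 1 library gave 1 to 4 members higher and 0 to 3 lower, 0 to 5 and 2 to 3 of the pathway list, and 18 to 249 and 59 to 284 of all genes, with fewer samples in each fit. The median log2 fold change of the members was between -0.034 and 0.0084 without 1 library, -0.0056 with no filter beyond 1 read, 0.0088 in limma on TPM and -0.0028 with the GC and length offset, so its sign is not fixed.

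Signs turned for genes with fold changes near 0. FTH1 was -0.0014 with no filter, -0.0024 with the stricter filter, -0.00083 without mitochondrial-genome genes and -0.015 with the GC and length offset. GPX4 was -0.0011, -0.0021, -0.00046 and -0.0042 in the same order. GLRX3 was 0.0010 with DESeq2 size factors, 0.00084 in DESeq2, 0.0021 in limma on TPM and 0.034 with the offset. GSR was 0.0034, 0.0033 and 0.025 in the first 3 of these, and SOD1 was -0.0046 with the offset. Without 1 library the ranges were -0.014 to 0.018 for FTH1, -0.022 to 0.013 for GPX4, -0.017 to 0.020 for GLRX3, -0.023 to 0.0098 for GSR and -0.042 to 0.098 for TXN. The causes were not tested.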

Other observations

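The ratio of CPM to the authors' TPM differed between libraries for some members. Its largest value over its smallest across the 6 libraries was above 1.2 for 10 of 66 members with a mean of at least 5 CPM, or 15.2%, and for 19.8% of all 7478 such genes with a value. It was 3.46 for MSRB3, 3.23 for GSTM3, 1.62 for TXNL4A, 1.53 for AKR1C1, 1.36 for SOD2 and 1.31 for GSR. For NQO1, next in this order, CPM per TPM was between 1.29 and 1.69. GSTM3 was between 21.1 and 23.4 CPM in all 6 libraries, while its CPM per TPM was 2.60 in C1 and 2.47 in K3 and between 0.805 and 0.987 in the others. For NFE2L2, whose counts split across the letters, the same ratio varied by 1.05.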
